A study of Homo sapiens with 42 samples.

Results

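Chromatin accessibility in MCF10A cells given IFNG together with EGF was compared with that in cells given OSM alone, within the same time point. MCF10A is an established, non-tumorigenic human mammary epithelial cell line. The comparison took 12 of the 42 ATAC-seq samples of the series, chosen by their titles: 3 samples (replicates A, B and C) of IFNG + EGF at 24 h, 3 at 48 h, and the same for OSM. IFNG was given at 20 ng/ml and OSM at 10 ng/ml, and the cells of both arms had first been moved to a medium with horse serum, hydrocortisone and cholera toxin but without EGF or insulin. OSM cells received no EGF, so the effects of EGF and of the choice of cytokine cannot be told apart in a direct contrast. The series also holds 8 samples of EGF without cytokine, 6 of PBS and 4 taken untreated at 0 h, which are quoted beside the 12 as background. The remaining samples were given TGFB with EGF, or HGF alone, and they enter only where all 42 samples are fitted. ATAC-seq marks open chromatin through the cuts of a transposase, and a peak in a pool of cells does not tell more open cells from more cuts per open cell.

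IFNG signals through its receptor (IFNGR1, IFNGR2), JAK1 and JAK2 to STAT factors that bind gamma-activated sequences, and IRF1 and other interferon regulatory factors are induced. These factors bind interferon-stimulated elements at genes for antigen presentation, guanylate-binding proteins and chemokines. OSM, a cytokine of the interleukin-6 family, signals through OSMR or LIFR paired with IL6ST, mainly to STAT3, whose targets include its inhibitor SOCS3 and the repressor BCL6. EGF signals through its receptor to the MAP kinases and the AP-1 factors FOS and JUN.

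Sites were made by merging overlapping peaks of the 12 samples, which gave 119599 sites, and 87058 of them had a peak in at least 2 of the 12 samples and were tested. Below, a site is "higher" in an arm when it had a peak in more of that arm's samples than their peak numbers predict. The quantity is the adjusted detection, which is 1 for a peak and 0 for none minus the share of sites of equal breadth (found in the same number of the 12 samples) that the sample detected. A difference near 1 therefore means a peak in all samples of one arm and in none of the other. A site was called at a Benjamini-Hochberg adjusted p under 0.05 in limma with a difference of at least 0.5. Fold enrichment is the authors' ratio of the pileup at a peak to the local background, and "no peak" is a value below their peak threshold, not a measured absence of accessibility.

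The stretches printed here show what the called sites of listed genes looked like. They were picked, after the values were known, from the first 4 in each direction with a STAT, IRF or AP-1 letter match within 50 bp of the summit. Each is a window of the hg38 plus strand around a summit, with the match in capitals. In IFNG + EGF, the promoter sites of WARS1 (tryptophanyl-tRNA synthetase, chr14:100375417-100375537), IFIT3 (an antiviral protein, chr10:89332388-89332508) and IRF2 (an interferon regulatory factor, chr4:184448971-184449091) each had a peak in 5 of 6 samples and in 0 of 6 OSM samples. WARS1 holds the gamma-activated letters TTCNNNGAA and the others the interferon-stimulated letters GAAANNGAA, read on either strand.
WARS1: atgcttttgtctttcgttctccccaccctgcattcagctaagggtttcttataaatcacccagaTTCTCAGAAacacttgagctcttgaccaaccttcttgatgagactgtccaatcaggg
IFIT3: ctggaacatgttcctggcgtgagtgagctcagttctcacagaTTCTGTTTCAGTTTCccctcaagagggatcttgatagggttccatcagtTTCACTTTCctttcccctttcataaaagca
IRF2: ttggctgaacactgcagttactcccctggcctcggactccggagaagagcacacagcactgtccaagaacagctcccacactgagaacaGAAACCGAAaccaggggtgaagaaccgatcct
In OSM, the sites lie near IVL (involucrin of the cornified envelope, chr1:152886905-152887025, 4 of 6 samples), near SOCS3 in an intron of PGS1 (chr17:78399781-78399901, 5 of 6), near S100A7 (an S100 protein of squamous epithelium, chr1:153470817-153470937, 3 of 6) and in an intron of BCL6 (chr3:187737896-187738016, 3 of 6). The first 3 hold the AP-1 letters TGANTCA and BCL6 the STAT3-type letters TTCCNGGAA, which are a subset of the gamma-activated letters. IFNG + EGF had no peak at 3 of these and 1 peak near SOCS3.
IVL: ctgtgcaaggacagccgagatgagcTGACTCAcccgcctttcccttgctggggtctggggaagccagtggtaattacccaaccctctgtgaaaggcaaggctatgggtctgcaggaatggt
SOCS3: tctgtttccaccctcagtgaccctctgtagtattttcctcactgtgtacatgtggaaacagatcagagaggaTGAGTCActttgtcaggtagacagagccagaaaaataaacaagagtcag
S100A7: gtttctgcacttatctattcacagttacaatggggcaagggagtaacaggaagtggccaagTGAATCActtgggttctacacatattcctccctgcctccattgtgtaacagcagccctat
BCL6: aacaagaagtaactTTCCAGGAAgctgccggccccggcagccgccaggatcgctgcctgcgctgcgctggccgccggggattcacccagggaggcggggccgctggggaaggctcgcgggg

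Peak numbers varied widely within each ligand, and their ranges overlapped. Samples A, B and C had 75438, 27375 and 43468 peak summits for IFNG + EGF at 24 h. The same 3 letters had 79867, 97284 and 6156 at 48 h. Under OSM they numbered 107141, 50094 and 41799 after 24 h and then 75424, 11188 and 35021 after 48 h. Replicate C of IFNG + EGF at 48 h and replicate B of OSM at 48 h stood apart with few peaks. The study's methods state that samples with a low fraction of reads in peaks were removed from its own ATAC-seq analysis, and all 12 samples were kept here. A figure legend of its supplement states that low-quality IFNG + EGF samples were removed, which left 2 replicates of that treatment. The legend does not name the removed samples. The mean ratio of IFNG + EGF to OSM was 0.930 (exact permutation test within time, two-sided, p = 0.885, 400 arrangements, smallest possible p 0.005). Background coverage, the fragments per base that the fold enrichment and p of the peaks imply away from peaks, was 1.01 to 1.25 in IFNG + EGF and 1.05 to 1.36 in OSM (difference -0.0817, exact permutation p = 0.195). Without replicate A of OSM at 48 h this difference was -0.127 (exact permutation p = 0.025). The 2 samples with few peaks had background coverage of 1.18 and 1.36, inside or above the range of the others. All 5 sequencing lanes held samples of both ligands.

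**Figure D1:**
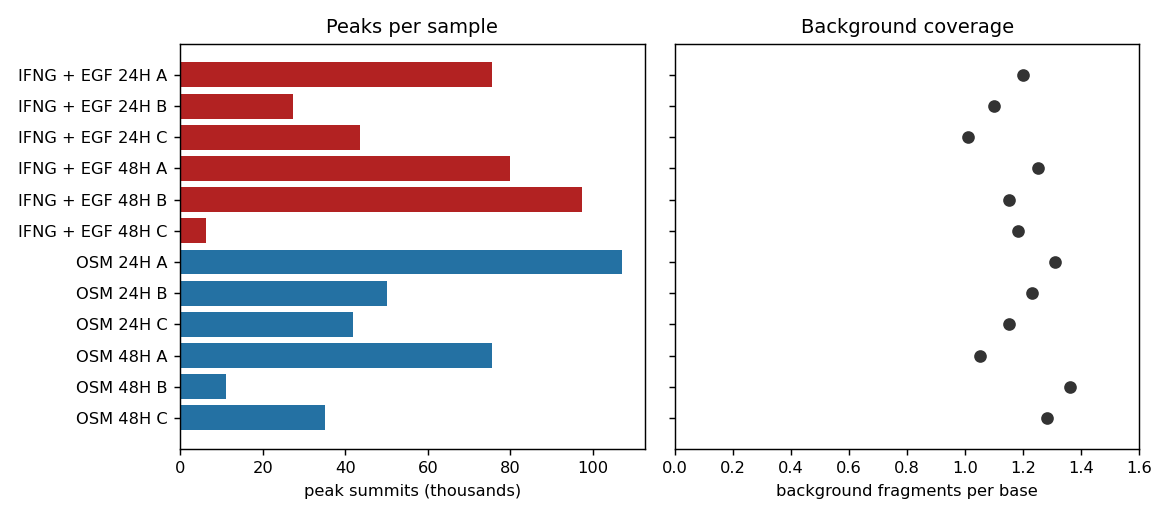
Peak summits (left, bars, axis in units of 1000) and background coverage in fragments per base (right, points) of the 12 samples, with IFNG + EGF in red and OSM in blue on the left. The bars run from 6156 to 107141 summits while the points stay between 1.01 and 1.36.

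Epithelial identity was visible at promoters, within the limits of peak number. Of 10 epithelial markers, 0 to 7 had a promoter peak in an IFNG + EGF sample and 1 to 8 in an OSM sample, and GRHL2 and TP63 had none in any of the 12 samples. Of 8 blood cell markers 0 to 2 had a promoter peak in either arm, with 6 at 0 in every sample, and of 8 fibroblast and endothelial markers 0 to 2, with 5 at 0 in every sample.

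Samples were more alike within a ligand than between ligands. The mean Pearson correlation of adjusted detection across sites was -0.00144 within and -0.158 between ligands, a difference of 0.156 (exact permutation test within time, one-sided, p = 0.005, the smallest it can give). Leaving out each sample in turn gave 0.133 to 0.196, leaving out both samples with few peaks gave 0.223, and raw detection gave 0.0695 (exact permutation p = 0.015).

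With the 12 samples alone, no site passed the call rule at either time or over both (limma, percent called 0). The lowest adjusted p was 0.306 over both times, 0.309 at 24 h and 0.436 at 48 h. Even a site with a peak in all 6 OSM samples and no IFNG + EGF sample, as near PIK3C3, had an unadjusted p of 0.00134 and that adjusted p of 0.306 (limma). This fit therefore did not call even a full switch, and its 0 does not measure how many sites differ. At an unadjusted p under 0.05 there were 10956 sites over both times, 7590 of them higher in IFNG + EGF and 3366 higher in OSM. This fit had 8 residual degrees of freedom.

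Estimating the spread over all 42 samples, with the differences still between the same 12, gave 1057 sites higher in IFNG + EGF (percent called 1.21) and 985 higher in OSM (percent called 1.13) over both times, or 2.35 in either direction. The calls and named sites that follow rest on this wider fit, except those after subtraction of the EGF difference, which come from a fit of 26 samples. The wider fit was taken up after the 12-sample fit called none, and none of its sites passed with 12 samples. Its spread includes the TGFB + EGF, HGF, EGF, PBS and 0 h samples, so sites that varied little among those were easier to call. Without the TGFB and HGF samples, 886 of the 1057 and 597 of the 985 calls were kept. At 24 h it called 1460 and 489 sites (percent called 1.68 and 0.562, or 2.24 in either direction). No site was called at 48 h (10093 at an unadjusted p under 0.05) or for a change of the difference with time (5573 at an unadjusted p under 0.05). Single samples decided much of these numbers. Over both times, IFNG + EGF and OSM calls numbered 27 and 425 without replicate A of OSM at 48 h, 265 and 94 without replicate A of IFNG + EGF at 48 h, 290 and 138 without replicate B of IFNG + EGF at 48 h, and 460 and 581 without replicate C of IFNG + EGF at 24 h. They were 601 and 1309 without replicate A of OSM at 24 h, 819 and 521 without replicate B of OSM at 24 h, 2037 and 1061 without replicate C of OSM at 24 h, 1372 and 537 without replicate A of IFNG + EGF at 24 h, and 901 and 565 without replicate C of OSM at 48 h. Without replicate C of IFNG + EGF at 48 h, a sample with few peaks, they rose to 2348 and 2394, and 1254 and 1013 sites were then called at 48 h alone. Calls higher in OSM at 48 h numbered 57 without replicate A of OSM at 24 h, and they were 48 and 93 without replicates A and B of OSM at 48 h. At 24 h, IFNG + EGF and OSM calls were 934 and 37 without replicate A and 427 and 11 without replicate C of IFNG + EGF at 24 h, and 775 and 975, 371 and 23, and 1074 and 81 without replicates A, B and C of OSM at 24 h. IFNG + EGF calls at 24 h were 906 without replicate A of OSM at 48 h. A change with time was called at 66, 14 and 4 sites without replicate B or C of IFNG + EGF at 24 h and replicate A of OSM at 48 h. The values without each library, in either direction, kept their sign at all called sites. A difference of at least 0.5 leaves a single sample little room to turn it, so this was largely set by the call rule.

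The commonest called pattern was a peak in 4 of 6 samples of one arm and none of the other, and the call rule itself selects such contrasts. Of the 1057 higher in IFNG + EGF (percent called 1.21), 597 had a peak in 4 of 6 IFNG + EGF and 0 of 6 OSM samples, where 968 tested sites had that pattern. The pattern of 5 and 0 held for 340 called of 352 tested sites, and all 6 and 0 for 6 of 6. Of the 985 higher in OSM (percent called 1.13), 369 called of 423 tested sites had a peak in 0 of 6 IFNG + EGF and 4 of 6 OSM samples, 158 of 158 in 0 and 5, and 21 of 21 in 0 and 6. The others had 3 OSM peaks and no IFNG + EGF peak (132) or a peak in 1 or 2 IFNG + EGF samples. The mirror pattern, 3 IFNG + EGF peaks and no OSM peak, was found at 2233 tested sites. After adjustment it gave a difference of 0.452, as at CXCL10, and so could not be called.

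The 12 sites named in each direction shared the lowest adjusted p, 0.011 in limma with 42 samples and 0.306 with 12. Other called sites, such as those of CD74, GBP5 and IRF1, had the same 0.011. The 12 were taken from that tie by the larger difference in log2 fold enrichment, so their fold enrichments are high by selection. The TNFSF13B promoter (chr13:108269424-108270156, 40 bp from a start, in the UTR), which serves the B-cell survival factor BAFF, was open in all 6 IFNG + EGF samples. Its fold enrichment was 10.5, 5.24 and 8.35 at 24 h and 11.9, 12.4 and 4.58 at 48 h, with no peak in OSM, EGF or PBS and a peak in 2 of 4 samples at 0 h (difference 0.948 ± 0.193 SE). The other 11 each had a peak in 5 of 6 IFNG + EGF samples, the exception being replicate C at 48 h, and in none of OSM. An intron of PPP1R12B, a regulatory subunit of myosin phosphatase, held one of them (chr1:202531713-202532388), with fold enrichments of 14.8, 9.44 and 14.2 at 24 h and of 10.4 and 14.3 at 48 h (difference 0.753 ± 0.163 SE), and it carries STAT3-type letters. The rest lay 15.7 kb from IL7, in an intron of SYNE2 (chr14:63933132-63933480), and 35.8 to 512 kb from CNEP1R1, SMAD1, SLCO4C1, B3GALT2, CLEC14A, EPHA7, BPNT2 and CDH12. None of these 12 sites had a peak in any of the 8 EGF samples. Without replicate A of OSM at 48 h only TNFSF13B of the 12 was still called.

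Sites higher in OSM were of a different make-up. Of the 12, 10 had a peak in all 6 OSM samples and in no IFNG + EGF sample (difference -1.05). The site 1787 kb from PIK3C3 (chr18:40167788-40168344, intergenic) had fold enrichments of 15.5, 9.85 and 6.51 at 24 h and 13.1, 4.24 and 9.20 at 48 h (± 0.180 SE on the difference). It had no peak in EGF, PBS or 0 h samples, and it holds gamma-activated letters. Of the others, the site 7.68 kb from SCYGR1 (chr2:227395317-227396083) had fold enrichments of 7.71 to 14.3 in OSM and a peak in 1 of 8 EGF samples. By contrast, the sites 4.23 kb from CA12, a carbonic anhydrase (chr15:63385835-63386313), 37.9 kb from PAMR1 (chr11:35567700-35568529), 650 kb from KCNT2 (chr1:195958119-195958599) and 662 kb from IRS1 (chr2:226137207-226137963) had a peak in all 8 EGF samples and all 4 at 0 h. The sites in introns of FGD3 (chr9:92988212-92988824), NAV1 and SAMD12 and 464 kb from ZNF608 had a peak in 6, 3, 8 and 7 EGF samples, and the remaining sites lay 24.9 kb from MCTP2 (5 of 6 OSM samples) and 400.5 kb from FSIP2 (6 of 6, with 1 of 6 in IFNG + EGF).

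**Figure D2:**
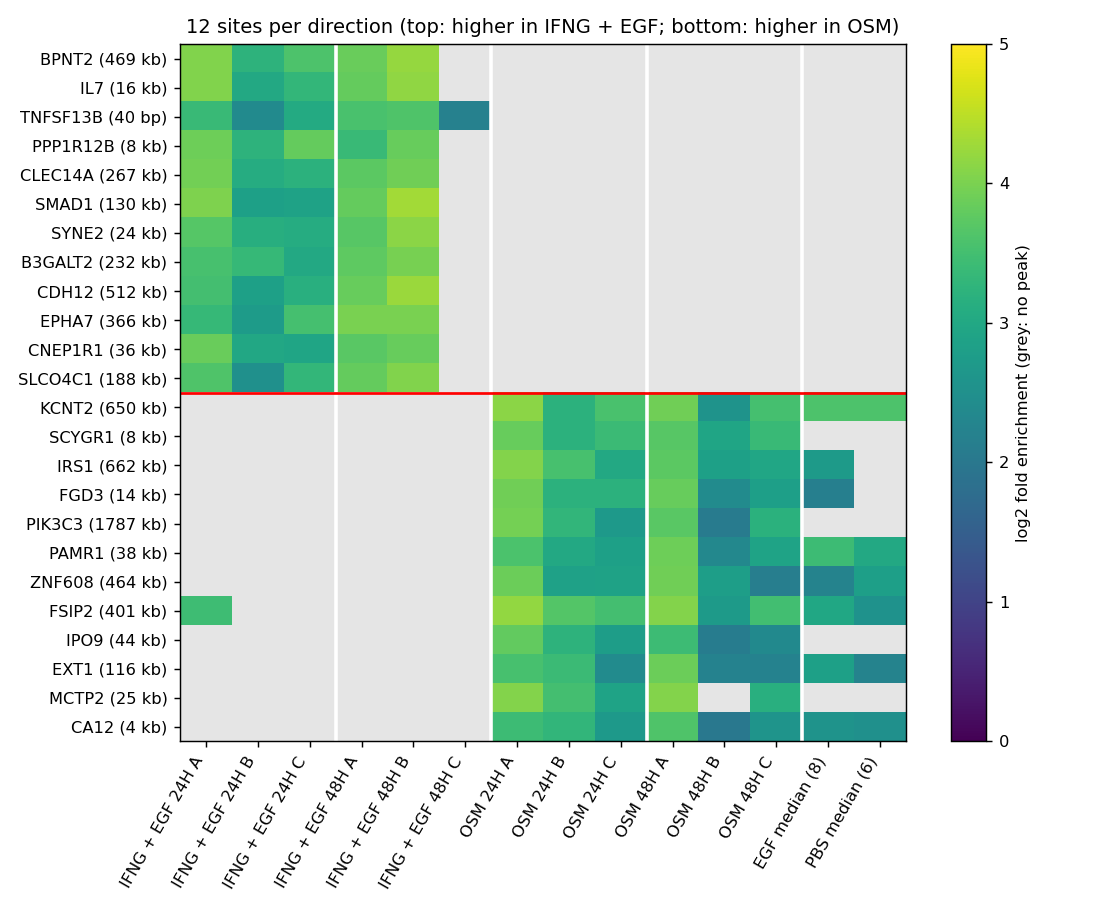
Log2 fold enrichment (colour, grey for no peak) at the 12 named sites per direction in the 12 samples, with the median of 8 EGF and 6 PBS samples at the right and the distance to the nearest protein-coding start beside each gene. Above the red line the OSM columns are grey throughout, and below it the IFNG + EGF columns are grey except for replicate A at 24 h near FSIP2.

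At 24 h alone, the 3 named sites higher in IFNG + EGF were those of BPNT2, IL7 and PPP1R12B, already described. Of those higher in OSM, one lay near HAS2, the hyaluronan synthase, and another in an intron of ZMYM1 (chr1:35085541-35086010). The HAS2 site had fold enrichments of 9.07, 4.84 and 5.26 in OSM at 24 h and no peak in OSM at 48 h or in IFNG + EGF. The ZMYM1 site had 9.60, 6.26 and 3.72 in OSM at 24 h, and in IFNG + EGF no peak at 24 h but 5.92 and 6.99 in 2 samples at 48 h. It had a peak in all 8 EGF samples. No test of change with time passed for any site.

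Interferon gamma target genes were grouped by role. The lists were chosen with earlier results of these data known, so counts are a description beside all promoters. Over 11623 genes with a tested promoter site (within 1000 bp of a start), 40 had one called higher in IFNG + EGF and 19 in OSM, and the median difference was 0.0239.

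Antigen presentation moved in part. The promoter of CD74, the class II invariant chain (chr5:150412595-150413406), had fold enrichments of 8.56, 4.77 and 7.94 at 24 h and 8.81 and 7.59 at 48 h, with no peak in replicate C at 48 h or in OSM, EGF, PBS or 0 h samples. PSMB10, an immunoproteasome subunit, was called as well, with 4.79 to 6.91 in 4 samples (chr16:67936449-67937166). Of the class I list 1 of 13 tested promoters was called (median 0.281) and of the class II list 1 of 2 (median 0.503). Other members, such as TAP1 (4 of 6 against 2 of 6 samples, adjusted p = 0.313), PSMB8 (4 against 1, adjusted p = 0.142) and B2M (5 against 5), did not pass. TAP1, PSMB8 and the HLA genes lie in the MHC region of chromosome 6, where the study's methods describe poor alignment of the ATAC-seq reads, so these counts are uncertain there. CIITA, the class II master regulator, had a called intronic site (chr16:10878442-10878989) with peaks in 6 of 6 and 1 of 6 samples, though 3 of 6 PBS samples also had one, and another site within 50 kb was called higher in OSM. NLRC5, the class I counterpart of CIITA, had a called intronic site (chr16:56999294-56999876) with 5.59 to 9.88 in 5 samples and none elsewhere.

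Guanylate-binding proteins, GTPases that act against intracellular pathogens, had 2 of 7 tested promoters called (median 0.364) and 6 of 8 genes with a called site within 50 kb, against 5.15% of all genes. Neighbouring genes share sites, GBP1 and GBP3 for example, so these are not 6 separate sites. GBP5 (chr1:89272439-89273315) was open in all 6 IFNG + EGF samples, at 7.44, 5.66 and 5.07 at 24 h and 8.38, 7.94 and 4.92 at 48 h, and had no peak at this site in OSM, EGF or PBS (difference 0.948 ± 0.180 SE, adjusted p = 0.011). GBP4 (chr1:89198622-89199182) had 5.18 to 7.36 in 4 samples and none in OSM. GBP1 had a promoter peak in 6 of 6 and 3 of 6 samples (adjusted p = 0.203), so its difference did not pass. GBP5 also had 1 called site within 50 kb that was higher in OSM.

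Called promoters of chemokines and antiviral genes were higher in IFNG + EGF. Of 3 tested promoters of interferon-induced chemokines, 2 were called (median 0.587). CXCL9, a T-cell attractant, had 5.27, 4.86 and 4.58 at 24 h, then 4.89 and 5.47 at 48 h (chr4:76007241-76007758, exonic), and CXCL11 8.20 to 9.32 in 4 samples (chr4:76035894-76036411, in an intron of ART3). CXCL10 had a peak in 3 of 6 and 0 of 6 samples (adjusted p = 0.0593). Of 26 antiviral promoters 4 were called (median 0.392), those of IFIT3 and the apolipoproteins APOL1, APOL3 and APOL6, and 8 of 26 genes had a called site within 50 kb against 5.15% of all 19609 genes in this direction. Such a site was not particular to interferon lists. It was also found for 2 of 8 blood cell markers (CD14 and CSF1R), 1 of 8 fibroblast and endothelial markers (KDR) and 1 of 10 epithelial markers (GRHL2). IFIH1, a sensor of viral RNA, had a called site within 50 kb that was higher in OSM. IFIT3 had 6.91, 4.81 and 6.96 at 24 h, then 7.99 and 6.82 at 48 h (chr10:89332106-89332536, in an intron of LIPA), and 1 of 6 PBS samples had a peak. The APOL6 site had a peak in 6 of 8 EGF samples and 1 of 6 OSM samples as well. OAS1, OAS2, OAS3, OASL, MX1 and ISG15 had adjusted p from 0.0593 to 0.164. The APOL cluster was also the densest, with 5 called sites within 50 kb of APOL4 and 4 of APOL2, and the chemokine cluster followed with 4 of CXCL11 and of ART3.

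Of 10 tested promoters of transcription factors of the pathway, 1 was called (IRF2, median of the list 0.322), and 4 of 11 genes (IRF1, IRF2, CIITA and NLRC5) had a called site within 50 kb higher in IFNG + EGF. The IRF1 promoter had a peak in 6 of 6 and 5 of 6 samples (adjusted p = 0.257). A broad site 9.07 kb away (chr5:132477415-132482178) had 2.84, 2.97 and 3.08 at 24 h, then 4.52, 3.52 and 3.62 at 48 h, with no peak in any OSM, EGF or PBS sample (difference 0.948 ± 0.180 SE). IRF2 had a called promoter site (chr4:184448822-184449136) at 3.95 to 6.96 in 5 samples. IDO1, a tryptophan-degrading enzyme, had 4.99, 3.81 and 5.21 at 24 h, then 7.38 and 7.22 at 48 h at its promoter, and the WARS1 site (chr14:100375114-100375837) 7.45, 6.66 and 6.18 at 24 h and 7.41 and 6.61 at 48 h. CD274, the checkpoint ligand PD-L1, had a promoter peak in all 12 samples. Counted over all starts, promoter peaks were found in 5 of 6 IFNG + EGF samples and in 6, 5 and 4 of 6 OSM samples for WARS1, IRF2 and IFIT3, so the called site was not their only promoter site. Of the called sites of listed genes higher in IFNG + EGF, only those of GBP5, IRF1 and the region of SLC25A47 within 50 kb of WARS1 were still called without replicate A of OSM at 48 h.

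**Figure D3:**
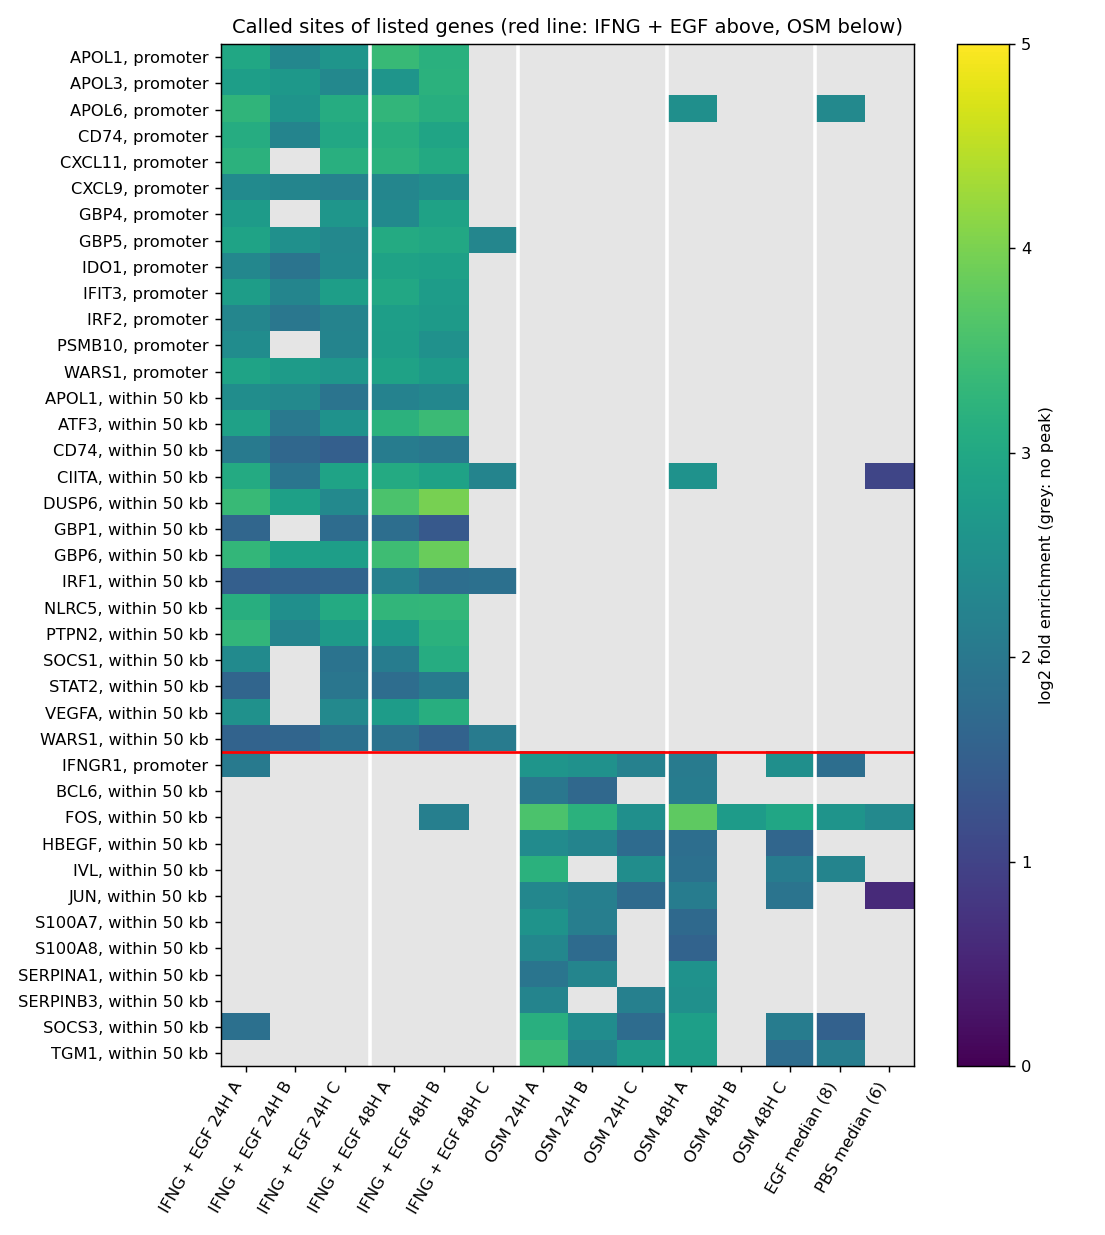
Log2 fold enrichment (colour, grey for no peak) at called sites of listed genes in the 12 samples, with the EGF and PBS medians at the right. The rows of the cell type markers CD14, CSF1R, KDR, GRHL2 and KRT5 are not shown. Above the red line 4 of the sites have a peak in replicate C of IFNG + EGF at 48 h, the sample with 6156 summits, and below it the TGM1, IVL, SOCS3, FOS and IFNGR1 rows are coloured in the EGF column too.

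Most promoters of receptors and proximal signalling genes were detected in similar numbers of samples. OSMR, IL6ST and STAT3 had a promoter peak in all 12 samples, LIFR in 6 of 6 and 5 of 6, and SOCS3 in 5 of 6 of each arm. Of 11 OSM pathway promoters tested, 0 were called in either direction (limma, median difference 0). IFNGR2 and IRF9 had a peak in 5 of 6 samples of each arm, and JAK2 in all 12. USP18 had one in 5 of 6 and 2 of 6 (limma, adjusted p = 0.0637). At IFNGR1 a site within its first 1000 bp (chr6:137217024-137217543, intron) was called higher in OSM, with 6.06, 5.77 and 4.61 at 24 h and 4.20 and 5.58 in 2 samples at 48 h against 4.09 in 1 IFNG + EGF sample (difference -0.719 ± 0.175 SE, adjusted p = 0.028), and 6 of 8 EGF samples had a peak there. Counted over all starts, IFNGR1 had a promoter peak in 5 of 6 samples of each arm, so the called site was not its only promoter site. Of 11 IFNG receptor and signalling genes, 4 had a called site within 50 kb higher in IFNG + EGF and 1 higher in OSM. Over all genes these shares were 5.15% and 3.69%. The 4 were JAK1, STAT2, SOCS1 and the phosphatase PTPN2, with the last in its intron (chr18:12904023-12904490, 4.77 to 9.82 in 5 samples). USP18 and PIAS1 had none.

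Some listed genes of the STAT3 and growth factor responses had called sites higher in OSM away from promoters. Of 25 acute phase and STAT3 response genes, 2 (BCL6 and SERPINA1) had such a site within 50 kb, against 3.69% of all genes, and 1 (VEGFA, in 4 of 6 against 0 of 6 samples) had one higher in IFNG + EGF, and 0 of 16 tested promoters were called (limma). The BCL6 and SERPINA1 sites each had a peak in 3 OSM samples and in no IFNG + EGF sample. The mirror of that pattern could not be called, so these counts do not compare the 2 directions. Near SOCS3 the site (chr17:78399662-78400094) had 8.93, 5.37 and 3.43 at 24 h, then 7.06 and 4.28 at 48 h in OSM against 3.61 in 1 IFNG + EGF sample (adjusted p = 0.0302), and 4 of 8 EGF samples had a peak. BCL6 (chr3:187737545-187738041) had 3.95 and 3.23 at 24 h, then 4.27 at 48 h in 3 OSM samples and no peak in IFNG + EGF, EGF, PBS or 0 h samples (difference -0.548 ± 0.146 SE, adjusted p = 0.035). Near FOS (chr14:75242559-75243160) all 6 OSM samples had a peak at 5.64 to 13.5 against 1 IFNG + EGF sample at 4.49, and so did 6 of 8 EGF and 6 of 6 PBS samples. JUN (chr1:58779836-58780383) and HBEGF, an EGF-family growth factor (chr5:140348285-140348533), had peaks in 5 OSM samples at 3.29 to 4.96 and 3.14 to 5.29, with none in IFNG + EGF or EGF. The JUN site also had a peak in 3 of 6 PBS and 3 of 4 samples at 0 h, and the HBEGF site in 2 of 4 at 0 h. Of the 26 growth factor genes, 5 had a called site within 50 kb higher in OSM and 1 in IFNG + EGF, against 3.69% and 5.15% of all genes. The 1 in IFNG + EGF lay near DUSP6, a MAP kinase phosphatase (chr12:89333890-89334316, 5.13 to 15.8 in 5 samples, no EGF sample).

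Sites within 50 kb of genes of squamous differentiation were called in the OSM direction. Of 16, 7 had a called site within 50 kb higher in OSM and 0 higher in IFNG + EGF, against 3.69% and 5.15% of all genes, while 0 of 7 tested promoters were called (median 0.119). The S100A7 and S100A8 sites had a peak in 3 OSM samples and in no IFNG + EGF sample, a pattern whose mirror could not be called. A site within 50 kb of several genes counts for each of them. Near IVL the site (chr1:152886841-152887320) had 9.18 and 5.47 at 24 h, then 3.58 and 4.30 at 48 h in OSM and no peak in IFNG + EGF, while 7 of 8 EGF samples had one. The S100A7 site (chr1:153470672-153471039) had 5.94 and 4.39 at 24 h, then 3.28 at 48 h, and no EGF, PBS or 0 h sample had a peak. The TGM1 site, at the start of LTB4R2 (chr14:24309772-24310399), had 3.47 to 10.5 in 5 OSM samples and was open in 6 of 8 EGF samples. The sites near SOCS3, BCL6, SERPINA1, JUN, HBEGF, IFNGR1, IVL, S100A7, S100A8 and TGM1 were no longer called without replicate A or without replicate B of IFNG + EGF at 48 h, when 94 and 138 of the 985 calls were kept, and the FOS site was lost without replicate A.

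Detection under EGF alone had different shares in the called sets. Of the 1057 sites higher in IFNG + EGF, 846 (80.0%) had a peak in 0 of 8 EGF samples, against 194 (19.7%) of the 985 higher in OSM and 11.7% of all tested sites. A peak in 6 or more of the 8 was found at 115 (10.9%), 447 (45.4%) and 55.8%. Neither EGF nor PBS samples had a peak at 785 (74.3%) and 147 (14.9%) of the called sites and 8.76% of all tested sites. Those shares describe the sites and carry no test, since the EGF samples helped set the spread behind the calls. Promoters made up 3.78% and 1.93% of the called sites against 15.4% of all tested sites, and 48.3% and 57.2% were intergenic against 49.1%.

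**Figure D4:**
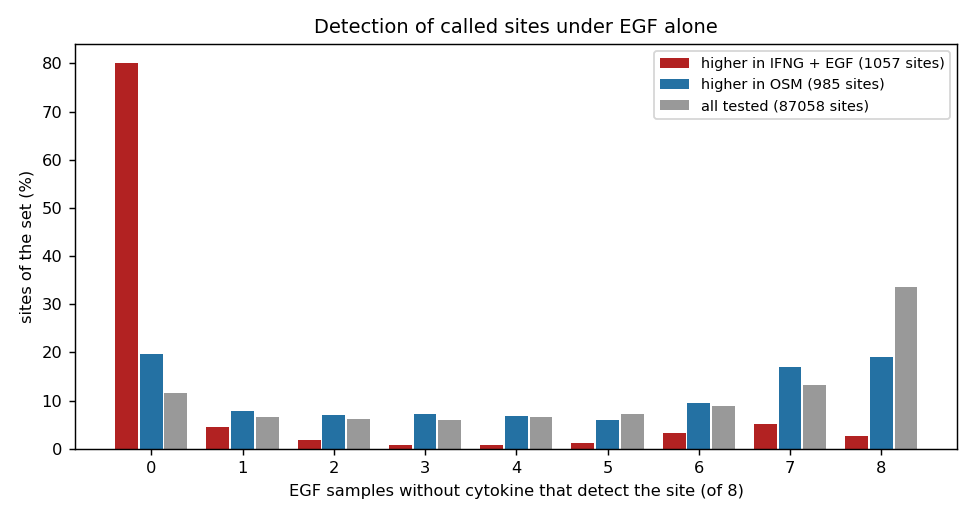
Share of sites in percent by the number of EGF samples, of 8, with a peak there, for sites called higher in IFNG + EGF (red), in OSM (blue) and all tested sites (grey). The red bar at 0 reaches 80.0%, and the grey bar is highest at 8.

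Subtracting the EGF against PBS difference from the IFNG + EGF against OSM difference, in a fit of 26 samples that assumes that effects add, called 1302 sites higher in IFNG + EGF (percent called 1.5) and 1417 higher in OSM (percent called 1.63), or 3.12 in either direction. The promoters of CD74, GBP4, GBP5, IDO1, WARS1, IRF2, CXCL9, CXCL11, IFIT3, APOL3 and PSMB10 and the TNFSF13B site were called in this fit, and those of APOL1 (adjusted p = 0.0594) and APOL6 (adjusted p = 0.211) were not. Among sites higher in OSM, those near IRS1, IVL and TGM1 and in FGD3 were called after subtraction, while those near SOCS3 (adjusted p = 0.162), BCL6 (adjusted p = 0.368), JUN (adjusted p = 0.944) and PIK3C3 (adjusted p = 0.111) were not. At the PIK3C3, BCL6 and CD74 sites no EGF or PBS sample had a peak. Their differences still moved, from -1.05 to -0.716, from -0.548 to -0.349 and from 0.753 to 1.06. That shift came from the breadth shares subtracted in the EGF and PBS samples. At such sites a call kept or lost does not measure EGF at the site. The total was 942 without replicate A of IFNG + EGF at 48 h, 1546 without replicate B and 6440 without replicate C of that group, 1676 without replicate A of OSM at 48 h, and 4094 and 4382 without replicates B and C of OSM at 24 h.

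Sequence letters within 100 bp of the centre summit had different shares in the called sets, given without a test. Of 22 motifs, searched on both strands, the interferon-stimulated letters occurred in 548 (51.8%) of the sites higher in IFNG + EGF, 44 (4.47%) of those higher in OSM and 9.13% of all tested sites. STAT3-type letters occurred in 3.78%, 1.52% and 1.11%, and the wider gamma-activated letters in 13.6%, 10.2% and 7.998%. AP-1 letters were in 29.5%, 40.0% and 37.9%, C/EBP letters (TTGCNNAA) in 15.2%, 22.1% and 14.6%, RUNX letters (TGTGGTT) in 7.19%, 11.5% and 6.29%, and the p53 and p63 half-site in 7.00%, 12.9% and 7.02%. A match is a description and not a bound site.

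Across all detected sites, a motif deviation per sample (the percent by which detected sites with the motif exceeded the number expected from their breadth) avoids the calls. The interferon-stimulated deviation was 15.6, 40.1 and 30.6% at 24 h and 16.4, 8.35 and 53.7% at 48 h in IFNG + EGF, and -27.7, -15.1 and -7.64% at 24 h and -26.2, 32.6 and -7.68% at 48 h in OSM. All IFNG + EGF samples were above 5 of the 6 OSM samples, and the sixth was replicate B of OSM at 48 h, which had few peaks. The difference of 36.1 percentage points had an exact permutation p of 0.025, adjusted over 22 motifs to 0.0917, and so did not pass. It was 38.1 points without the 2 samples with few peaks (exact permutation p = 0.0167, adjusted 0.0733). EGF samples averaged -22.8 ± 6.16% at 24 h (SD, n = 4) and -25.1 ± 1.14% at 48 h (SD, n = 4). The sites and their breadth were set by the IFNG + EGF and OSM samples alone. EGF samples took no part in this, so their values cannot serve as a baseline for either ligand. PBS samples, left out in the same way, averaged -20.7% at 24 h and -13.5% at 48 h.

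The test was passed by 4 motifs, all lower in IFNG + EGF, at an exact permutation p of 0.005 (the smallest possible) and an adjusted p of 0.0275. They were C/EBP (-15.8 points), the p53 and p63 half-site (-14.4), RUNX (-13.3) and forkhead (GTAAACA, -10.1). The p53 and p63 deviation was -3.97 to -8.12% in 5 IFNG + EGF samples and -23.6% in replicate C at 48 h, against 2.04 to 11.4% in OSM, with no overlap. Replicate C of IFNG + EGF at 48 h was the lowest of all for RUNX (-54.1%) and C/EBP (-52.9%). Without that sample no motif passed, and none passed without replicate A, B or C of OSM at 48 h. Without both samples with few peaks the differences were -7.62, -10.5, -6.20 and -6.46 points in the same order, each with an adjusted p of 0.0733 at the smallest exact permutation p that 10 samples allow, 0.0167. The gamma-activated deviation was highest in those 2 samples, at 103.9% and 65.7%, and its difference between ligands did not pass (5.95 points, exact permutation p = 0.730).

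**Figure D5:**
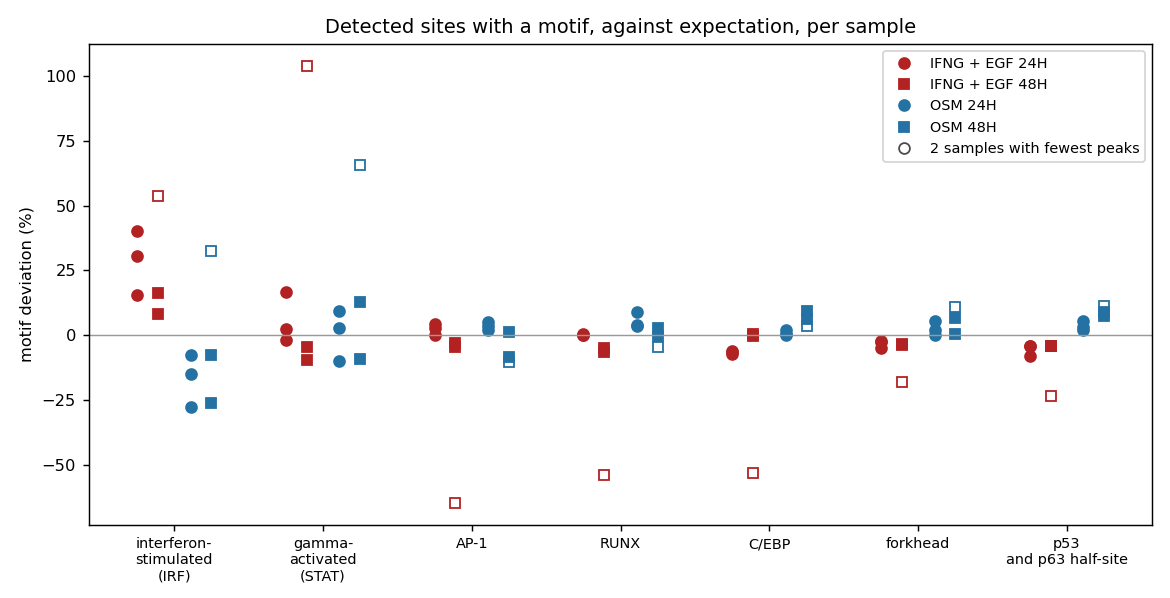
Motif deviation in percent of each of the 12 samples for 7 motifs, with IFNG + EGF in red, OSM in blue, circles for 24 h and squares for 48 h, and open squares for the 2 samples with few peaks. For the interferon-stimulated motif the red points lie between 8.35 and 53.7% and the blue ones between -27.7 and 32.6%, the highest blue point being an open square.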

How the data were processed

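ATAC-seq libraries of MCF10A cells were processed by the authors with Trimmomatic 0.36.5, Bowtie2 2.3.4.1, Picard and MACS2 2.1.1.20160309.5 on hg38, per the submitters' processing notes and the study's methods, and peaks were called in each sample without a control library at q under 0.01. The deposited peak lists give, per summit, an integer score, a fold enrichment ratio and −log10 p and q. They hold no read counts, so sequencing depth is unknown, and the precision of a site's detection is limited by 3 samples per group.

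Peaks on chromosomes 1 to 22 and X were merged (1 bp or more of overlap) over the 12 samples. Adjusted detection was tested with limma 3.58.1 in R 4.3.3 on group means, with Benjamini-Hochberg adjustment over 87058 sites. The planned fit over the 12 samples called no site, and the fit over all 42, listed as an alternative, was then used to name sites. Single values per sample and motif deviations were tested by exact permutation within time (400 arrangements), with Python 3.11.15, scipy 1.17.1 and pandas 2.3.3. Background coverage was solved from fold enrichment and p in up to 3000 peaks per sample. The commonest value was used in place of the median after the values were seen. The test scripts were tested on simulated data.

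Named sites were the 12 per direction over both times and 3 per direction at 24 h with the lowest adjusted p, ties going to the larger difference in log2 fold enrichment. Named genes were those of 17 lists (228 genes) with a called promoter site or, up to 4 per list, a called site within 50 kb, and the genes with most called sites. Receptors were given by counts, and text names further list members beside them, chosen after their values were seen. Members, lists and tests were chosen with earlier results of these data known. Starts came from the protein-coding genes of the GENCODE annotation on the same build. The labels number replicates by letter, and the study's methods call them biological replicates of this 1 cell line. Detection in samples that share a letter across groups did not vary together (correlations of deviations -0.131 to 0.225), so letters were not used as pairs. No 2 of the 12 samples had equal peak numbers. Sequences of chromosome 8 are not printed, and sites of chromosome Y and unplaced sequence were left out. Some items that these rules name are not reported here.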

Additional observations from a re-analysis of the deposited data

How the results depend on the processing

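Counts of called sites depended strongly on the processing, and the alternatives to the 42-sample fit, like leaving out the 2 samples with few peaks, were chosen after seeing the data. In the 12-sample fit, which called 0 sites, raw detection called 11 sites higher in IFNG + EGF and 94 higher in OSM over both times, 10 and 92 at 24 h, 11 and 23 at 48 h and 82 for a change with time. The 5000 strongest peaks of each sample called 143 and 329, 65 and 84, 39 and 99, and 151, and all 42 samples in the fit 1057 and 985 over both times and 1460 and 489 at 24 h. With the replicate block, 25 and 28 sites were called at 24 h, and over both times and at 48 h the 12-sample count with the block was still 0. Leaving out each replicate in turn kept it at 0, in a fit that did not call even a peak in all samples of one arm and none of the other.

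In the 42-sample fit over both times, the 2 counts were 2131 and 461 with raw detection, 326 and 447 with the 5000 strongest peaks, 134 and 306 with peaks at −log10 q of at least 5, 2353 and 2056 with log2 fold enrichment, and 2682 and 2604 without the 2 samples with few peaks. No site passed at an adjusted p under 0.01. Array weights gave 1873 sites higher in IFNG + EGF, lane as a term 392, and leaving out the TGFB and HGF samples 628 higher in OSM. Leaving out each of the 12 samples gave 27 to 2348 and 94 to 2394, and leaving out each of the other 30 gave 940 to 1195 and 885 to 1257. At 24 h they were 382 and 214 with raw detection, 278 and 255 with the 5000 strongest peaks, 630 and 217 without the filter on sites, 391 and 117 at −log10 q of at least 5, 695 and 214 with a variance trend, 687 and 270 with lane as a term, 0 and 0 at an adjusted p under 0.01, and 371 to 1637 and 11 to 975 leaving out each sample. At 48 h, where 0 were called, they were 2961 and 87 with raw detection, 176 and 285 with the 5000 strongest peaks, 3 and 78 with log2 fold enrichment, 1748 and 1044 with array weights, 1234 and 1521 without the 2 samples with few peaks, and 0 to 1254 and 0 to 1013 leaving out each sample. For a change with time they were 5 with raw detection, 278 with the 5000 strongest peaks and 0 to 66 leaving out each sample.

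After subtraction of the EGF difference, 2719 sites became 1075 with raw detection, 592 with the 5000 strongest peaks, 6768 with log2 fold enrichment, 114 at an adjusted p under 0.01, 10026 with array weights, 1132 with the replicate block, and 942 to 6440 leaving out each sample. The fit over all 42 samples was not run for this result. The motif count of 4 became 0 with promoters classed apart, with the replicate block and without the 2 samples with few peaks, and 0 to 6 leaving out each sample. With the block the smallest possible p is 0.03125, too large for a few of 22 motifs to pass, so that fall is set by the design. Without the 2 samples with few peaks the smallest exact permutation p is 0.0167. It is also too large for 4 of 22 motifs alone to pass, so that fall was largely set by the design too. The promoter share of peaks differed by 1.12 points (exact permutation p = 0.725), by 4.43 points in the 5000 strongest peaks (exact permutation p = 0.035) and by -1.18 to 2.57 points leaving out each sample. Background coverage differed by -0.0708 as a median over peaks (exact permutation p = 0.62), and by -0.127 to -0.0492 leaving out each sample. Of the 1057 and 985 called sites, 1050 and 978 were still called without the 2 samples with few peaks, 16 and 17 with the 5000 strongest peaks and 1040 and 923 with the replicate block. No alternative listed here turned the direction of a named site. Among all called sites, 1 in each direction turned with peaks at −log10 q of at least 5. In every group, 3 samples and lists without read counts limit what detection can show, and the cause of these shifts was not tested.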
